A study of Mus musculus with 6 samples.

Results

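The genes described here encode the initiation and elongation factors of cytosolic translation, together with the eIF4E-binding proteins and the enzymes that modify elongation factors. They were taken by symbol: every listed gene whose symbol begins with Eif1 to Eif6 or with Eef1 or Eef2 was a member, apart from the eIF2 kinases (Eif2ak genes), which are treated below as regulators. This gave 71 genes of the 14408 in the table, and the rule reads symbols only. RNA was sequenced from 6 libraries, 3 for PBS and 3 for L-proline, with male C57BL/6J mice given as the source and left ventricle as the tissue. All the mice, the PBS controls included, were 8 weeks old when they began a high-fat diet with L-NAME, which blocks nitric oxide synthesis, at 0.5 g/L in the drinking water for 8 to 12 weeks. The diet and drug together model heart failure in which the ejection fraction is preserved (HFpEF). L-proline, a non-essential amino acid, was then injected intraperitoneally at 300 mg/kg/day for 4 to 8 weeks, and the controls received PBS over the same period. The labels do not tie the libraries to separate animals, so p-values measure the spread between libraries, which may be technical.

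Translation begins when eIF2 brings the initiator methionyl-tRNA to the small ribosomal subunit, with eIF1, eIF1A, eIF3 and eIF5, while eIF4E, eIF4G and eIF4A bind the cap of the mRNA and open its leader. Phosphorylation of eIF2 blocks its reloading by eIF2B and lowers initiation generally, and unphosphorylated eIF4E-binding proteins, which are substrates of the kinase complex mTORC1, take eIF4E away from eIF4G. In elongation, eEF1A delivers aminoacyl-tRNA, eEF1B recharges eEF1A with GTP, and eEF2 moves the ribosome along the mRNA until eEF2 kinase switches it off. Many mRNAs for elongation factors and ribosomal proteins carry a 5′ terminal oligopyrimidine (TOP) tract, through which mTORC1 controls their translation. RNA levels do not report the phosphorylation or the amount of these proteins.

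Values are FPKM, fragments scaled to gene length and to the library's total, as the authors deposited them. Library totals ran from 34990473 to 37498030 fragments, which makes 1 fragment in 1 kb equal to 0.0267 to 0.0286 FPKM. Of 13 cardiomyocyte markers 6 were listed and 1 of them, Tnnt2, had a mean of at least 1 FPKM, while Ttn, Ryr2, Myl2 and Tnni3 stayed at or below 0.212 FPKM in every library, so the defining markers of heart muscle were almost absent from libraries labelled as ventricle. The summed level of the listed cardiomyocyte markers, 31.58 to 33.02 FPKM in PBS and 13.78 to 16.36 FPKM in L-proline, was nearly all Tnnt2 (31.4 to 32.9 against 13.6 to 16.3 FPKM). Fibroblast markers, 7 of 10 listed, summed to 3367 to 3466 FPKM in PBS and to 4069 to 4475 FPKM in L-proline. The collagen genes Col3a1 and Col1a2 carried that rise in the sum, while Pdgfra was lower in L-proline (7.32 to 8.22 against 5.86 to 6.12 FPKM) and Fn1 overlapped (1341 to 1392 against 1313 to 1352 FPKM). The 8 listed pericyte and smooth muscle markers summed to 944.1 to 1059 FPKM against 852 to 1050 FPKM, the 5 macrophage markers to 19.69 to 22.23 against 21.78 to 25.41 FPKM, the 6 endothelial markers to 1.236 to 1.305 against 1.216 to 1.321 FPKM, and the 6 neuron markers to 77.94 to 88.1 against 47.29 to 52.21 FPKM. The neuron sum was nearly all Stmn2 and Tubb3. Stmn2 stood at 47.5 to 54.3 FPKM in PBS against 33.3 to 33.8 FPKM in L-proline, and Tubb3 at 28.7 to 33.8 against 12.4 to 17.8 FPKM. Rbfox3, Syt1, Map2 and Syp stayed at or below 0.6982 FPKM in every library. The cardiomyocyte, fibroblast and neuron sums did not overlap between the groups and the others did, and their part in the results below was not tested. The 6 listed endothelial markers each stayed at or below 0.8218 FPKM in every library. The macrophage sum was mostly Cd14, with Cd68 and Lyz2 at or below 5.5233 FPKM and Csf1r and Mrc1 at or below 0.2741 FPKM. Most of the pericyte and smooth muscle sum was Acta2, then Tagln and Pdgfrb, while Myh11, Rgs5 and Vtn stayed at or below 0.1448 FPKM. The sums thus do not show that each of these cell types was present. Where a type was present, fewer of its cells and less RNA per cell cannot be told apart in bulk RNA. The listed genes held 98.6% to 98.8% of the fragments in 5 libraries and 96.1% in L-proline 3.

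Few translation factor genes differed between the groups, and 5 of the 6 that did moved by 0.26 to 0.34 on the log2 scale, with a larger decrease in Eif5a2. Differences were tested with limma on log2(FPKM + 1) across the 10500 genes with a mean of at least 1 FPKM, and a gene is said to have risen or fallen where its adjusted p was under 0.05. Of the 71 members, 66 could be tested. Eif1 and Eef1g rose, Eif4ebp2, Eif5a2, Eif4e2 and Eef2kmt fell, and 60 did not pass. The 6 members make 9.09% of those tested, against 2056 genes or 19.6% of all genes tested. In the separate directions, 7.5% of all genes rose and 12.1% fell, so 38.3% of the calls were increases, a share that became 50.9% after median-of-ratios scaling and 51.5% after quantile normalization. The members' median log2 fold change was -0.02, beside -0.06 for all genes tested, and 32 members had a positive and 34 a negative value. Log2 fold changes of members ran from -0.75 to 0.51, and 58 of the 66 were smaller than 0.32 in size. All 3 L-proline libraries lay on one side of all 3 PBS libraries for 18 members, 27.3%, while 40.1% of all genes tested showed such a separation. The number of members past the threshold depended on the libraries used: leaving out PBS 1 or PBS 3 gave 0 members, and leaving out PBS 2 gave 2. Of the treated libraries, L-proline 1 left out gave 13 members, L-proline 2 gave 3 and L-proline 3 gave 4. At an unadjusted p under 0.05 in limma, 17 of 66 members passed in the full set, 10 without PBS 1 and 9 without PBS 3. Of all genes, 3687 of 10500 passed in the full set, 2726 of 10484 without PBS 1 and 2606 of 10484 without PBS 3. Limma with library weights called 28 members (42.4%) and 4671 of all genes (44.5%). The weights ran from 0.323 for L-proline 1 to 5.57 for PBS 3. For each of the 6 members, the lowest adjusted p in the ranges given below came from this weighted fit.

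**Figure D1:**
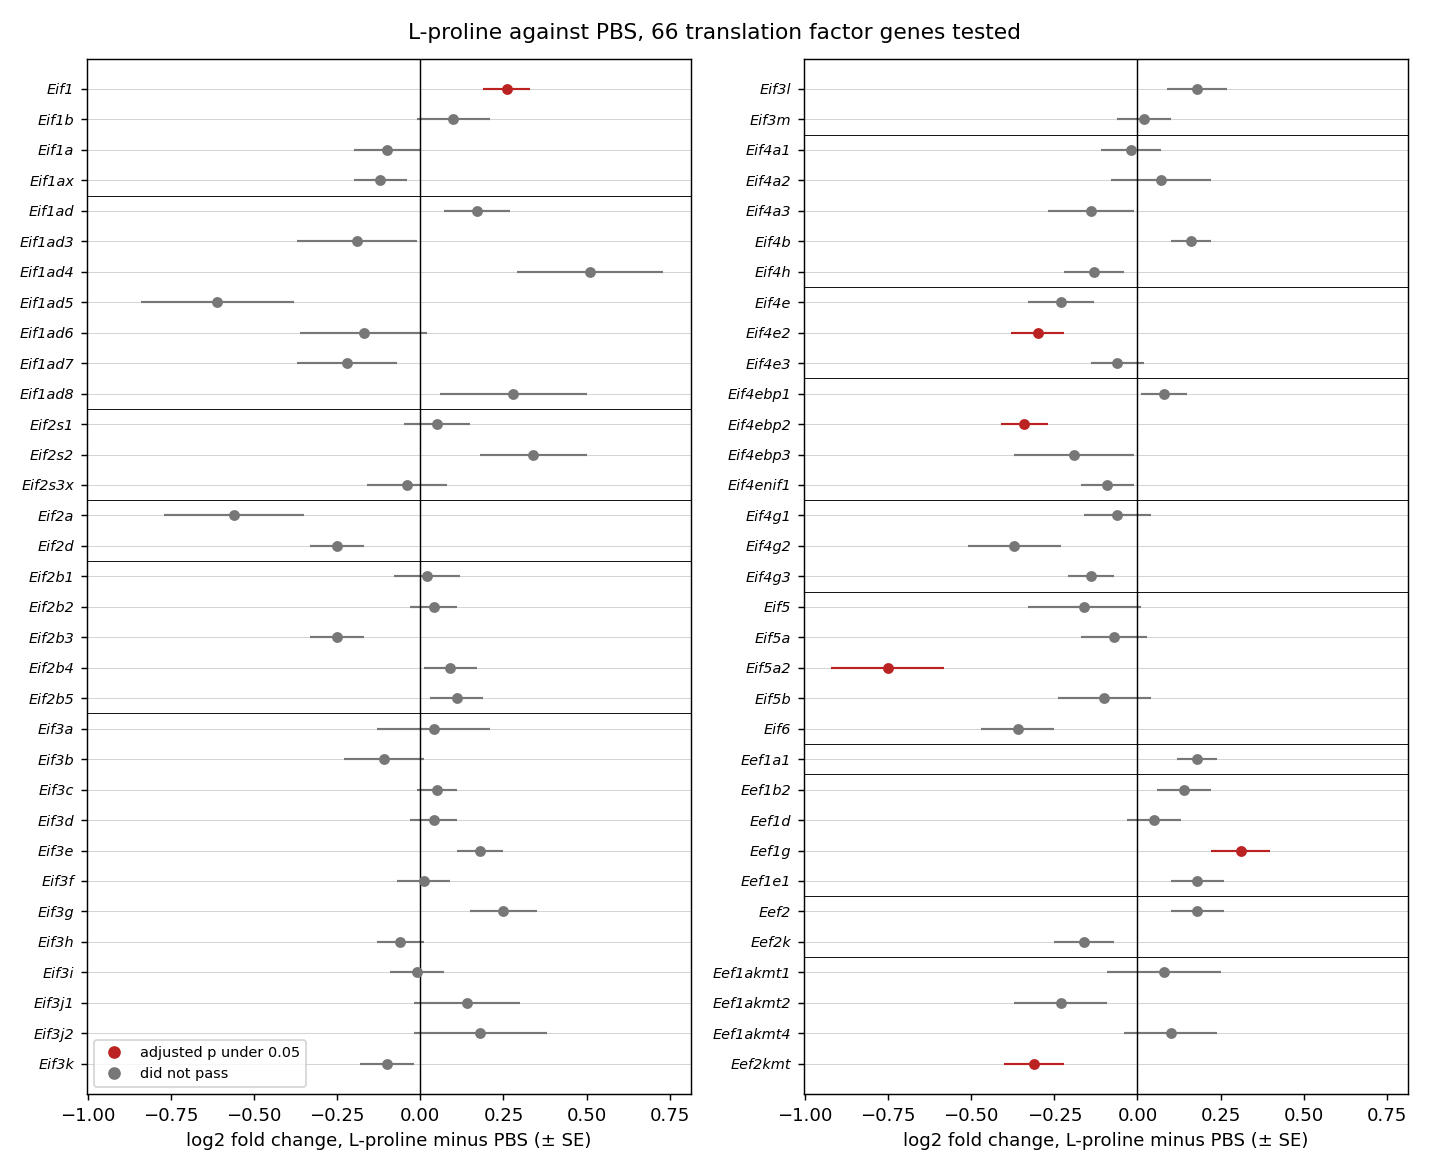
Log2 fold change of L-proline minus PBS on log2(FPKM + 1) for the 66 tested translation factor genes, in order of role, with horizontal bars for ± 1 standard error from limma. Red points, Eif1, Eef1g, Eif4ebp2, Eif5a2, Eif4e2 and Eef2kmt, had an adjusted p under 0.05, and 58 of the points lie within 0.32 of 0.

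The share called stayed below that of all genes at each level of expression. Of the 17 members with a mean over 100 FPKM, 2 passed (11.8%), against 24.8% of all genes at that level. Between 10 and 100 FPKM 2 of 33 members passed (6.06%), against 20.9% of all genes, and between 1 and 10 FPKM 2 of 16 (12.5%), against 17.7%. Both increases were in the most abundant class and all 4 decreases were below 100 FPKM. All genes tested leaned the same way. Over 100 FPKM 93 rose and 59 fell, between 10 and 100 FPKM 429 rose and 581 fell, and between 1 and 10 FPKM 266 rose and 628 fell. Of the cytosolic ribosomal proteins, the other abundant part of the translation apparatus, 20 of 85 tested genes rose and 1 fell. The share called, 24.7%, was close to the 24.8% of all genes with a mean over 100 FPKM, and the calls were mostly increases. Over 100 FPKM 93 of 614 genes rose and 59 fell, and over all genes 7.5% rose. The median log2 fold change was 0.18 in the list, 0.06 for all genes over 100 FPKM and -0.06 for all genes. The count of increases depended on the libraries: it was 3 if PBS 1 was left out, 21 for PBS 2 and 1 for PBS 3, and 29, 7 and 10 for L-proline 1, 2 and 3. It was 61 with array weights and 15 to 27 under the other alternatives, and the median was 0.07 after quantile normalization. This is a description of 2 lists and was not tested as a difference between them.

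Levels of the factors spanned a wide range, and the elongation factors held most of the RNA. Eef1a1, which encodes the main form of eEF1A, averaged 4566 FPKM in PBS, and Eef2 followed at 1383 FPKM. Next came Eef1g at 346, Eif5a at 337, Eif4a1 at 335, Eif3h at 293, Eif1 at 291 and Eef1b2 at 280 FPKM, neighbours that did not all differ beyond their spread: the PBS libraries of Eif5a, 311 to 373 FPKM, overlapped those of Eef1g, 321 to 376 FPKM, and of Eif4a1, 313 to 361 FPKM. Eef1a1 alone made 42.2% to 42.6% of the members' summed FPKM in PBS and 43.7% to 44.8% in L-proline, with no overlap between the groups. All members together held 2.31%, 2.47% and 2.31% of the fragments in PBS 1, 2 and 3, and 2.51%, 2.57% and 2.56% in L-proline 1, 2 and 3, so every L-proline library was above every PBS library. Eef1a1 alone held 0.792%, 0.861% and 0.799% of the fragments in PBS and 0.917%, 0.925% and 0.934% in L-proline. The summed FPKM of the Eif genes overlapped, at 3980 to 4186 in PBS and 4048 to 4252 in L-proline. At the low end was Eef1a2, the form of eEF1A that normally replaces Eef1a1 in adult heart and skeletal muscle. It stood at 0.0234, 0.00698 and 0.058 FPKM in PBS 1, 2 and 3 and at 0.0273, 0.0179 and 0.0307 FPKM in L-proline 1, 2 and 3. These values came from 2 to 17 fragments per library, and Eef1a2 was not tested. The other 4 members under the filter, Eef1akmt3, Eif1ad2, Eif1ad16 and Eif1ad19, were below 1.1 FPKM in every library.

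**Figure D2:**
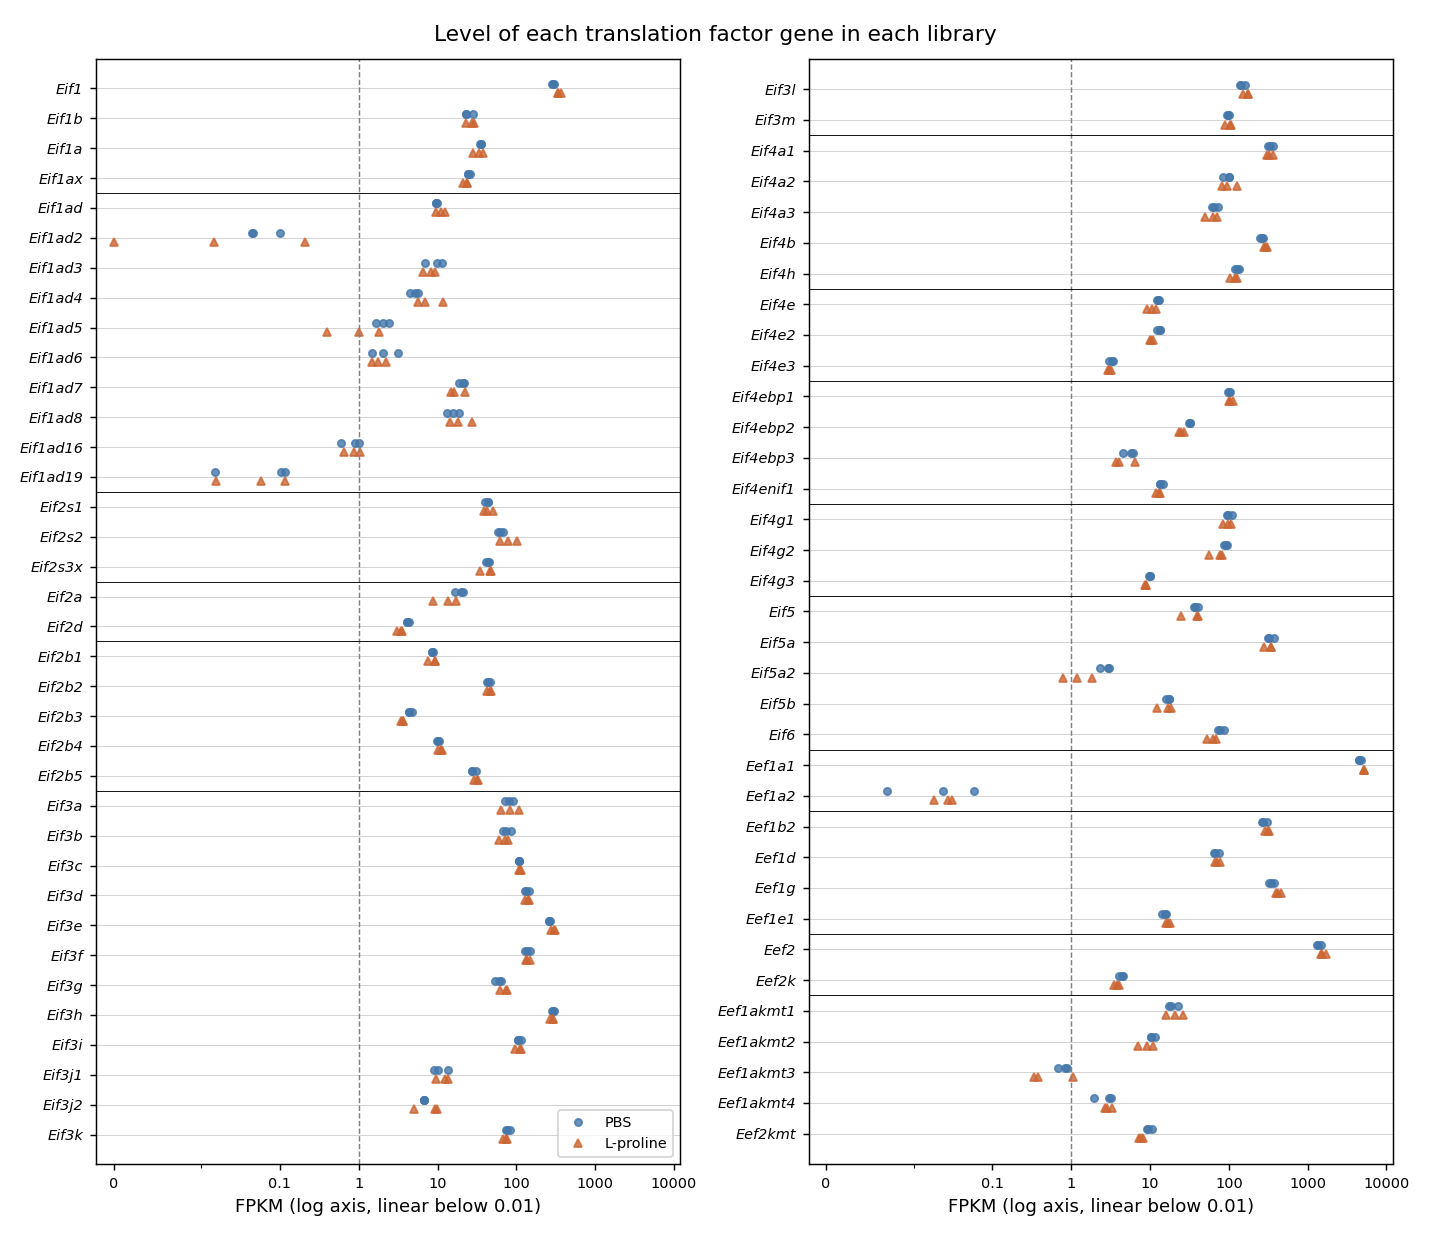
FPKM of each of the 71 translation factor genes in each library, on a log axis that is linear below 0.01, with circles for the 3 PBS and triangles for the 3 L-proline libraries and a dashed line at 1 FPKM. Eef1a1 and Eef2 stand above all other members in every library, while Eef1a2 lies below 0.1 FPKM.

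Start-site selection factors were the first group with a call. Eif1 encodes eIF1, which keeps the scanning ribosome from stopping at a wrong start codon. It stood at 284, 298 and 290.1 FPKM in PBS 1, 2 and 3 and at 338, 337 and 372 FPKM in L-proline 1, 2 and 3. Every L-proline library was above every PBS library, and L-proline 3 was the highest. Eif1 rose from 291 ± 7.25 to 349 ± 20.3 FPKM (mean ± SD of 3 libraries), with a log2 fold change of 0.26 ± 0.07 (SE, limma, adjusted p = 0.0295, range over the alternatives 0.00508 to 0.127). The call was lost without PBS 1 (adjusted p = 0.127), PBS 2 (0.0559), PBS 3 (0.116), L-proline 2 (0.0537) or L-proline 3 (0.0588). Eif1b, a close relative, was at 24.7 FPKM in PBS and 26.5 FPKM in L-proline. The forms of eIF1A, which works beside eIF1, were Eif1a with a log2 fold change of -0.10 ± 0.10 and Eif1ax with -0.12 ± 0.08. None of these 3 passed. Eif1a and Eif1ax are near copies, so how reads were divided between them is uncertain.

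The Eif1ad group takes its name from an eIF1A-like domain protein, and only Eif1ad itself had an entry in the reference gene table. Eif1ad was at 9.64 FPKM in PBS and 11.03 FPKM in L-proline and did not pass. Of the 9 genes numbered Eif1ad2 to Eif1ad19, 6 could be tested and none passed, with Eif1ad4 at 0.51 ± 0.22 (limma, adjusted p = 0.133) and Eif1ad5 at -0.61 ± 0.23 (limma, adjusted p = 0.103). The high mean of Eif1ad4 in the treated group came from L-proline 1, at 11.6 FPKM beside 5.69 and 6.88 FPKM in the other libraries. Without L-proline 1, Eif1ad5 passed at -0.85 (limma, adjusted p = 0.011, range over the alternatives 0.00502 to 0.278) and Eif1ad7 at -0.39 (limma, adjusted p = 0.0168, range 0.00811 to 0.68). Reads could be shared between these numbered copies, so their separate values are uncertain.

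No subunit of eIF2, the carrier of initiator tRNA, passed the threshold. Eif2s1, the alpha subunit that the stress kinases phosphorylate, stood at 40.4, 43.5 and 43.5 FPKM in PBS and at 42.6, 51.3 and 38.9 FPKM in L-proline. The groups overlapped, with both the highest and the lowest library in L-proline, and the log2 fold change was 0.05 ± 0.10 (limma, adjusted p = 0.76). Eif2s3x, the X-linked gamma subunit, stood at 45.5, 41.7 and 43.6 FPKM in PBS and at 47.8, 45.9 and 34.8 FPKM in L-proline. Here too the treated libraries enclosed the controls, and its log2 fold change of -0.04 ± 0.12 became 0.01 with median-of-ratios scaling. Eif2s3y was not analysed here. The beta subunit Eif2s2 was at 67.8, 58.2 and 61.8 FPKM in PBS and at 101, 79.1 and 62.6 FPKM in L-proline. Its treated libraries were spread far apart, L-proline 3 lying within the PBS range, and its value of 0.34 ± 0.16 passed only when L-proline 3 was left out or libraries were weighted (without L-proline 3: 0.51, limma, adjusted p = 0.0317, range over the alternatives 0.0169 to 0.322).

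The alternative factors that can place tRNA without eIF2 had lower means in L-proline. Eif2a stood at 21.3, 16.6 and 19.8 FPKM in PBS and at 17.1, 13.5 and 8.67 FPKM in L-proline. L-proline 3 was far below the rest, and L-proline 1 lay within the PBS range. Its log2 fold change was -0.56 ± 0.21 (limma, adjusted p = 0.0962), and it passed at -0.77 without L-proline 1 (limma, adjusted p = 0.0148, range over the alternatives 0.00512 to 0.256). Eif2d, at 4.19 ± 0.137 FPKM in PBS and 3.36 ± 0.246 FPKM in L-proline, did not overlap between the groups, with -0.25 ± 0.08 (limma, adjusted p = 0.0703), and passed in limma voom on recovered fragments (adjusted p = 0.0349, range over the alternatives 0.0324 to 0.32).

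None of the 5 subunits of eIF2B, the exchange factor that phosphorylated eIF2 inhibits, passed. Their PBS means were 8.62 FPKM for Eif2b1, 44.0 for Eif2b2, 4.46 for Eif2b3, 10.2 for Eif2b4 and 28.6 for Eif2b5. The catalytic subunit Eif2b5 had a log2 fold change of 0.11 ± 0.08. Eif2b3 was the one subunit whose groups did not overlap, at 4.30, 4.79 and 4.29 FPKM in PBS and 3.46, 3.69 and 3.65 FPKM in L-proline, with -0.25 ± 0.08 (limma, adjusted p = 0.0726).

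The 14 listed genes of eIF3, the multisubunit scaffold on the small subunit of the ribosome, also gave no call. Their log2 fold changes lay between -0.11 and 0.25 with a median of 0.04. PBS means ran from 6.75 FPKM for Eif3j2 to 293 FPKM for Eif3h, and Eif3e at 261 FPKM was well above Eif3a at 81.2 and Eif3b at 75.8 FPKM, which encode core subunits. Eif3e was the one gene whose groups did not overlap, at 267, 259 and 257 FPKM in PBS and 312, 299 and 278 FPKM in L-proline. All treated libraries were higher, the value was 0.18 ± 0.07 (limma, adjusted p = 0.0915), and it passed with median-of-ratios scaling (0.23, limma, adjusted p = 0.0451, range over the alternatives 0.0113 to 0.267). Eif3g, which contacts eIF4B, had 0.25 ± 0.10 (limma, adjusted p = 0.104). Without L-proline 1, Eif3g (0.33, limma, adjusted p = 0.0241, range over the alternatives 0.00772 to 0.318) and Eif3l (0.25, adjusted p = 0.0475, range 0.00685 to 0.416) passed. Without L-proline 3 Eif3j2 did (0.45, limma, adjusted p = 0.013, range 0.013 to 0.916). Eif3j1 and Eif3j2 are near copies and their separate values are uncertain.

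The helicase eIF4A and its partners did not pass either. Eif4a1, the main helicase gene, stood at 313, 361 and 331 FPKM in PBS and at 303, 363 and 324 FPKM in L-proline. The 2 groups covered nearly the same range, and the log2 fold change of -0.02 ± 0.09 (limma, adjusted p = 0.876) became 0.03 with median-of-ratios scaling. Eif4a2 was at 100.7, 84.1 and 101 FPKM in PBS and at 125, 95.3 and 83.0 FPKM in L-proline, where the highest and the lowest library again both belonged to the treated group (0.07 ± 0.15). Eif4b, which stimulates the helicase, did not overlap between the groups, at 260.1 ± 10.3 and 291 ± 11.1 FPKM, with 0.16 ± 0.06 (limma, adjusted p = 0.115). Eif4a3, the helicase of the exon junction complex, had -0.14 ± 0.13 and Eif4h -0.13 ± 0.09.

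The cap-binding proteins and their inhibitors held 2 of the 4 decreases. Eif4ebp2 encodes one of the eIF4E-binding proteins. It stood at 32.2, 31.7 and 31.3 FPKM in PBS and at 23.2, 26.8 and 24.5 FPKM in L-proline. The 3 control libraries were nearly equal, and every treated library was lower. Eif4ebp2 fell from 31.7 ± 0.471 to 24.9 ± 1.83 FPKM (mean ± SD of 3 libraries), which is -0.34 ± 0.07 on the log2 scale (limma, adjusted p = 0.0171, range over the alternatives 0.00624 to 0.0763). The call was lost without PBS 1 (adjusted p = 0.0763), PBS 2 (0.0525) or PBS 3 (0.0745).

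The relatives of Eif4ebp2 did not fall with it. Eif4ebp1, the best known target of mTORC1 in this family and an ATF4-responsive gene, stood at 101, 103 and 96.2 FPKM in PBS and at 103, 100.6 and 114 FPKM in L-proline. The groups overlapped, with L-proline 3 highest, and the log2 fold change was 0.08 ± 0.07 (limma, adjusted p = 0.471). Eif4ebp3 was at 6.02, 4.498 and 5.75 FPKM in PBS and at 6.51, 4.02 and 3.66 FPKM in L-proline. L-proline 1 was the highest of all 6 and the other treated libraries the lowest, with -0.19 ± 0.18 (limma, adjusted p = 0.494), and it passed without L-proline 1 (-0.40, limma, adjusted p = 0.0465, range over the alternatives 0.0284 to 0.865). Eif4enif1, which carries eIF4E into the nucleus, had -0.09 ± 0.08.

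Eif4e itself, the cap-binding subunit, was lower in FPKM than Eif4ebp1 and Eif4ebp2 and higher than Eif4ebp3. FPKM divides by gene length, recovered as 10231 bases for Eif4e, 981 for Eif4ebp1 and 1786 for Eif4ebp2. In fragments per library Eif4e held 3414 to 4916, Eif4ebp1 3454 to 4114 and Eif4ebp2 1523 to 2159. The size of the ratios below thus depends on the gene models. Eif4e stood at 12.8, 12.1 and 12.4 FPKM in PBS and at 12.0, 10.6 and 9.07 FPKM in L-proline. All treated libraries were below all controls, L-proline 1 by a small margin and L-proline 3 by the most, the log2 fold change was -0.23 ± 0.10 (limma, adjusted p = 0.16), and it passed without L-proline 1 (-0.32, limma, adjusted p = 0.0377, range over the alternatives 0.023 to 0.354). The ratio of Eif4ebp1 to Eif4e was 7.87, 8.53 and 7.73 in PBS and 8.52, 9.53 and 12.6 in L-proline, so the groups overlapped through PBS 2 and L-proline 1. The ratio of Eif4ebp2 to Eif4e was 2.52, 2.62 and 2.51 in PBS and 1.93, 2.54 and 2.70 in L-proline, where L-proline 1 was lowest and L-proline 3 highest of all 6.

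Eif4e2 encodes 4EHP, a cap-binding protein that does not bind eIF4G and acts as a repressor. It stood at 12.3, 13.4 and 13.3 FPKM in PBS and at 10.1, 10.8 and 10.3 FPKM in L-proline, levels close to those of Eif4e. Every treated library was below every control. Eif4e2 fell by 0.30 ± 0.08 on the log2 scale (limma, adjusted p = 0.0282, range over the alternatives 0.00623 to 0.134). It did not pass with median-of-ratios scaling (adjusted p = 0.0529), quantile normalization (0.0657), or without PBS 1 (0.0646), PBS 2 (0.0906), PBS 3 (0.134) or L-proline 3 (0.0554). Eif4e3 was at 3.21 and 3.04 FPKM and did not pass.

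**Figure D3:**
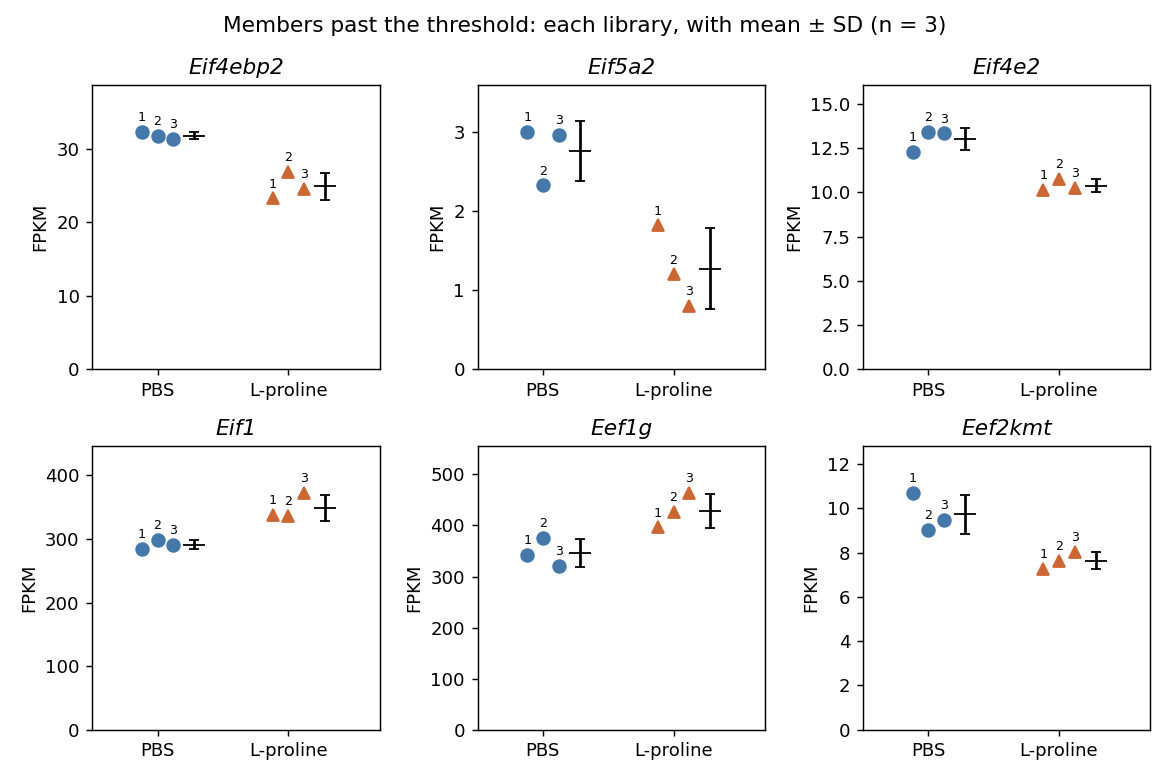
FPKM in each library, numbered by replicate, for the 6 translation factor genes past the threshold, with circles for PBS, triangles for L-proline, and the mean ± SD of each group (n = 3) drawn beside the points. In each panel the groups do not overlap, and the axis starts at 0.

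The eIF4G scaffolds did not pass. Eif4g1 stood at 95.3, 109 and 97.3 FPKM in PBS and at 84.7, 107 and 98.3 FPKM in L-proline. The ranges overlapped widely, with -0.06 ± 0.10 (limma, adjusted p = 0.691). Eif4g2, also called DAP5, which lacks the eIF4E-binding site, was at 91.9, 86.2 and 95.9 FPKM in PBS and 81.5, 77.7 and 55.5 FPKM in L-proline. All treated libraries were lower and L-proline 3 by far the lowest, with -0.37 ± 0.14 (limma, adjusted p = 0.099), and it passed without L-proline 1 (-0.47, limma, adjusted p = 0.0321, range over the alternatives 0.0118 to 0.263). Eif4g3 was at 9.85 ± 0.166 FPKM in PBS and 8.83 ± 0.118 FPKM in L-proline, separate but with a log2 fold change of only -0.14 ± 0.07 (limma, adjusted p = 0.188).

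Among the late factors, Eif5a2 had the largest log2 fold change of any tested member that passed. It encodes the second form of eIF5A, the hypusine-carrying factor that helps the ribosome through difficult stretches such as runs of proline codons. Eif5a2 stood at 2.99, 2.32 and 2.96 FPKM in PBS and at 1.82, 1.19 and 0.795 FPKM in L-proline. Every treated library was below every control, and L-proline 3 was the lowest. Eif5a2 fell from 2.76 ± 0.379 to 1.27 ± 0.514 FPKM (mean ± SD of 3 libraries), which is -0.75 ± 0.17 on the log2 scale (limma, adjusted p = 0.0179, range over the alternatives 0.000359 to 0.0757). The pseudocount shrinks the change of this low gene: the value was -1.12 with a pseudocount of 0.1 and -1.19 in limma voom on recovered fragments, and -0.59 at its smallest, without L-proline 3. The call was lost without PBS 1 (adjusted p = 0.0711), PBS 3 (0.0757) or L-proline 2 (0.0573).

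The main form, Eif5a, was far more abundant, at 311, 373 and 327 FPKM in PBS and at 280.0, 345 and 342 FPKM in L-proline. The groups overlapped and the log2 fold change was -0.07 ± 0.10 (limma, adjusted p = 0.684). The ratio of Eif5a to Eif5a2 was 103.8, 160.6 and 110.4 in PBS and 154.2, 288.8 and 429.5 in L-proline, so L-proline 1 lay just below PBS 2. Eif5, the GTPase activator of eIF2, was at 40.2 and 39.1 FPKM in L-proline 1 and 2 and at 24.97 FPKM in L-proline 3, with PBS libraries between 36.5 and 40.7 FPKM, and Eif5b, the subunit-joining GTPase, was at 16.9 FPKM in PBS and 15.9 FPKM in L-proline. Neither passed.

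Eif6 encodes the factor that keeps the large ribosomal subunit from joining too early. It stood at 73.0, 86.9 and 77.3 FPKM in PBS and at 52.5, 68.6 and 63.5 FPKM in L-proline. All treated libraries were lower than all controls, and the log2 fold change of -0.36 ± 0.11 missed the threshold narrowly (limma, adjusted p = 0.0558). Eif6 passed with quantile normalization (adjusted p = 0.0205), with array weights (0.0341) and without L-proline 2 (-0.44, limma, adjusted p = 0.049), and its adjusted p ran from 0.0142 to 0.146 over the alternatives.

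Among elongation factors the tested eEF1 genes had higher means in L-proline, apart from Eef1a1 after quantile normalization. Eef1a1 stood at 4423, 4811 and 4463 FPKM in PBS and at 5125, 5169 and 5217 FPKM in L-proline. The treated libraries were close together and above every control. Its log2 fold change of 0.18 ± 0.06 did not pass (limma, adjusted p = 0.0816). With quantile normalization, which gives every library the same distribution over all genes tested, it was -0.09. Eef1a1 has many processed pseudogenes, so its count may hold or lose shared reads.

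The exchange complex eEF1B held the other increase. Eef1g encodes its gamma subunit. It stood at 343, 376 and 321 FPKM in PBS and at 396, 426 and 464 FPKM in L-proline. Every treated library was above every control. Eef1g rose from 346 ± 27.5 to 428 ± 33.9 FPKM (mean ± SD of 3 libraries), which is 0.31 ± 0.09 on the log2 scale (limma, adjusted p = 0.0411, range over the alternatives 0.00203 to 0.164). It did not pass with no filter (adjusted p = 0.062), or without PBS 1 (0.135), PBS 3 (0.164), L-proline 2 (0.0987) or L-proline 3 (0.0946). The alpha and delta subunits, Eef1b2 (0.14 ± 0.08) and Eef1d (0.05 ± 0.08), and Eef1e1, a scaffold of the tRNA synthetase complex (0.18 ± 0.08), did not pass, though all 4 values of this group were positive, also under both scalings.

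The translocase gene Eef2 stood at 1349.8, 1492 and 1308 FPKM in PBS and at 1471, 1530.3 and 1695 FPKM in L-proline. L-proline 1 lay just below PBS 2, and the log2 fold change of 0.18 ± 0.08 did not pass (limma, adjusted p = 0.158) and was 0.02 with quantile normalization. Eef2k, the kinase that inactivates eEF2, was at 4.00, 4.57 and 4.39 FPKM in PBS and at 3.47, 3.81 and 3.98 FPKM in L-proline. The groups did not overlap, but only just, and -0.16 ± 0.09 did not pass (limma, adjusted p = 0.227).

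The methyltransferases of elongation factors gave the last decrease. Eef2kmt, which methylates a lysine of eEF2, stood at 10.7, 9.01 and 9.47 FPKM in PBS and at 7.25, 7.63 and 8.03 FPKM in L-proline. All treated libraries were lower. Eef2kmt fell from 9.73 ± 0.868 to 7.64 ± 0.388 FPKM (mean ± SD of 3 libraries), which is -0.31 ± 0.09 on the log2 scale (limma, adjusted p = 0.044). This was the least stable of the 6 calls: it passed in 2 of 13 alternatives, with a pseudocount of 0.1 (adjusted p = 0.0435) and with library weights (0.00967), and not when any of the 6 libraries was left out, with adjusted p values up to 0.17. The lowest adjusted p over all the alternatives was that with library weights. Eef1akmt1, Eef1akmt2 and Eef1akmt4, which methylate eEF1A, did not pass.

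Spread within the treated group was larger than within the controls. The median coefficient of variation of members was 6.85% in PBS and 10.3% in L-proline, and 48 of the 66 tested members varied more in L-proline. All genes tested were alike in this, with 6.94% and 10.1%, and 7856 of 10500 genes varied more in L-proline. Differences between libraries of 1 group moved with base composition. Across the 60 tested members with a known transcript, the difference between L-proline 1 and L-proline 3 had a Pearson correlation of -0.73 with GC content (-0.69 across 10214 genes), and that between PBS 1 and PBS 2 of -0.55. These are descriptions across genes, which share their libraries and are not replicates. Eif3a, at 44.5% GC, stood at 107, 83.6 and 64.3 FPKM in L-proline 1, 2 and 3, and Eif2a, at 40.0% GC, at 17.1, 13.5 and 8.67 FPKM. At the other end Eif6, at 57.9% GC, was lowest in L-proline 1. The log2 fold change between groups had a correlation of 0.08 with GC content. Eif5a2, at 38.8% GC, is among the members with the lowest GC content, and like Eif3a and Eif2a it was highest in L-proline 1 and lowest in L-proline 3 among treated libraries. The part of base composition in these results was not tested.

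**Figure D4:**
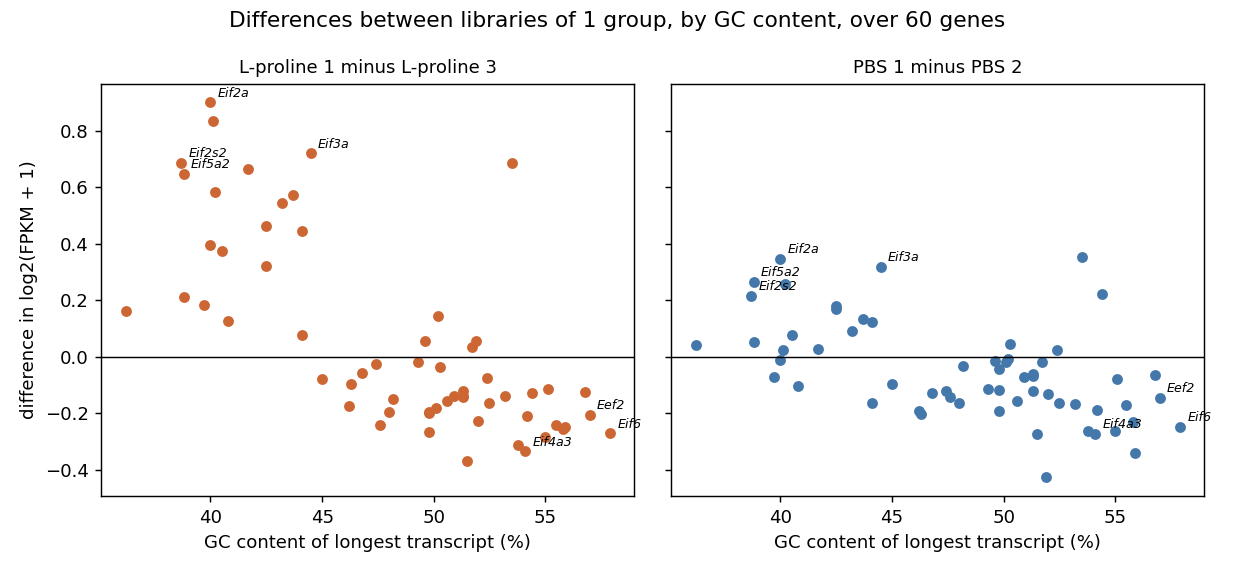
Difference in log2(FPKM + 1) between L-proline 1 and L-proline 3 (left) and between PBS 1 and PBS 2 (right), against the GC content in percent of each gene's longest transcript, for the 60 tested translation factor genes with a known transcript. Genes of low GC content lie mostly above 0 and genes of high GC content mostly below it, with Pearson correlations of -0.73 and -0.55.

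Promoters were read from RefSeq on the mouse build GRCm38.p6 for 47 of the 71 members, 46 of them tested, including 5 of the 6 called ones (Eef1g had no entry). The 250 bases before the most upstream start were searched on both strands for 4 motifs: CCGGAAG, bound by ETS factors such as GABP; CACGTG, the E-box of MYC, USF and TFEB; TGATGNAA, a form of the C/EBP-ATF response element of ATF4; and TGACGTCA, the cyclic AMP response element. No motif contains another. The ETS motif stood in 10 of 46 members' promoters (21.7%), against 15.2% of the promoters of tested genes and 7.07% of all 27025 promoters searched. The E-box likewise stood in 10 (21.7%), against 8.82% and 6.04%. The ATF4 form was in 1 promoter (2.17%), that of Eif2s3x, against 1.87% of tested genes, and the cyclic AMP element in none, against 2.89%. A match is a run of letters, not a site shown to be bound.

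The sequences below show these letters in their setting, chosen after the matches were seen. Eif5a2, which fell most, held 2 ETS and 2 E-box matches; Eif4ebp2 fell and held 1 ETS match; Eif3c, Eif4g1, Eef2 and Eef2k did not pass. Capitals mark the motif matches on either strand, each run is written 5′ to 3′ on the gene's strand, and each lies before the annotated start.
Eif5a2: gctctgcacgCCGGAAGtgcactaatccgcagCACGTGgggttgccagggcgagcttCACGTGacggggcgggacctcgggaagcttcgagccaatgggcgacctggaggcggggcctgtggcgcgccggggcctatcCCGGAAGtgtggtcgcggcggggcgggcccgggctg
Eif4ebp2: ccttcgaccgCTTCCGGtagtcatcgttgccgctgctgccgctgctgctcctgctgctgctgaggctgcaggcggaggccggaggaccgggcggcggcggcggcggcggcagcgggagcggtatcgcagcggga
Eif3c: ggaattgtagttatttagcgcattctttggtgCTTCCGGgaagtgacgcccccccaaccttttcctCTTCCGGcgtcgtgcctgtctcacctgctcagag
Eif4g1: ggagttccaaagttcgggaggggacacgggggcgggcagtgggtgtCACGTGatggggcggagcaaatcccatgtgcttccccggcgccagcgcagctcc
Eef2: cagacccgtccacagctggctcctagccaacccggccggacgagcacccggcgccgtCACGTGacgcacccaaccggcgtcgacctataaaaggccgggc
Eef2k: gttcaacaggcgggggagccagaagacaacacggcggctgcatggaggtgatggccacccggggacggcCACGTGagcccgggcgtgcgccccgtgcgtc

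The coordinates on GRCm38.p6 are chr3:28781103-28781276 (plus strand) for Eif5a2, chr10:61452670-61452803 (minus) for Eif4ebp2, chr7:126566367-126566466 (minus) for Eif3c, chr16:20672627-20672726 (plus) for Eif4g1, chr10:81176531-81176630 (plus) for Eef2 and chr7:120842731-120842830 (plus) for Eef2k. The E-box lay 43 bases before the start in Eef2, 31 bases before it in Eef2k and 54 bases before it in Eif4g1, counted to the motif's first base. In Eif5a2 the E-boxes began 142 and 117 bases before the start. Eef2 and Eef2k, a factor and its kinase, thus carried the same letters near their starts. Their log2 fold changes were 0.18 and -0.16. Neither passed, so no direction is established for either gene, and a link between the motif and these values was not tested.

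Regulators of these factors were taken from lists of known genes. Among 14 genes for the eIF2 kinases and the phosphatase that reverses them, 2 rose and none fell, or 14.3% of the list beside the 19.6% called over all genes: the phosphatase subunits Ppp1r15b, from 36.01 to 47.3 FPKM (0.38 ± 0.08, limma, adjusted p = 0.0152), and Ppp1r15a, from 9.13 to 12.1 FPKM (0.37 ± 0.08, adjusted p = 0.0174). Neither passed without PBS 1 or without PBS 3 (limma, adjusted p up to 0.0691 for Ppp1r15b and 0.0837 for Ppp1r15a). Of the kinases, Eif2ak2 (PKR) stood at 23.4, 16.5 and 22.1 FPKM in PBS and at 47.5, 34.5 and 24.8 FPKM in L-proline, separate but widely spread, and missed the threshold (0.72 ± 0.22, limma, adjusted p = 0.0543, range over the alternatives 0.00438 to 0.131). It passed in 5 of 13 alternatives, among them both scalings, library weights and leaving out L-proline 3 (0.95). Eif2ak1 had 0.22 ± 0.08 (limma, adjusted p = 0.0834). Targets of ATF4, the transcription factor translated when eIF2 is phosphorylated, differed most: 16 of 22 rose and none fell, with a median log2 fold change of 0.70. Trib3 rose from 1.52 to 19.3 FPKM (2.98 ± 0.21, limma, adjusted p = 0.000225), Chac1 from 5.61 to 23.2 FPKM (1.86 ± 0.11), Mthfd2 from 10.5 to 39.2 FPKM (1.80 ± 0.10) and Asns from 13.6 to 43.4 FPKM (1.60 ± 0.11). These 4 genes passed in all 13 alternatives, in which 15 to 18 genes of the list rose and 0 fell. That pattern was known from earlier results of these data when the list was chosen.

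Of 29 mTORC1 genes 5 rose and 1 fell, 20.7% of the list and close to the 19.6% over all genes. Sesn2, an amino acid sensor and ATF4 target, rose from 11.03 to 18.9 FPKM (0.72 ± 0.10, limma, adjusted p = 0.00304), and Lamtor1 (0.52 ± 0.10) and Rragc (0.31 ± 0.07), which hold mTORC1 at the lysosome, rose too, while Depdc5, part of the GATOR1 inhibitor, fell (-0.34 ± 0.08, limma, adjusted p = 0.0215). Sesn2 and Lamtor1 passed in all 13 alternatives, Rragc not without PBS 1, PBS 3 or L-proline 2 (limma, adjusted p up to 0.0858), and Depdc5 not without any 1 of the PBS libraries or after quantile normalization (up to 0.11). The list of MNK kinases and poly(A)-binding proteins had 25% called, beside 19.6% of all genes called and 12.1% that fell. In it 3 of 12 fell and none rose, and after median-of-ratios scaling 1 fell. They were Paip2b, an inhibitor of poly(A)-binding protein (-0.48 ± 0.08), Mknk2, a kinase of eIF4E, from 50.05 to 39.9 FPKM (-0.32 ± 0.08), and Cyfip1, an eIF4E-binding protein (-0.24 ± 0.07). Paip2b passed in all 13 alternatives, Mknk2 in 8 and Cyfip1 in 5, and neither of the latter passed when any 1 PBS library was left out or after median-of-ratios scaling (limma, adjusted p up to 0.0958 and 0.166). A list of 10 genes held those of hypusine and diphthamide synthesis, the modifications carried by eIF5A and eEF2, together with Mettl13. Of these Dph5 alone passed (-0.39 ± 0.09, limma, adjusted p = 0.0256), 10% beside 19.6% of all genes. Dph5 did not pass without any 1 of the PBS libraries, without L-proline 3 or after quantile normalization (limma, adjusted p up to 0.0888).

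The remaining lists gave few calls, at shares near or below the 19.6% of all genes for the accessory factors (7.69%), termination and rescue (20%) and mitochondrial factors (18.2%). By direction, 7.5% of all genes rose and 12.1% fell. One of 13 accessory initiation factors rose, Mcts2 (0.38 ± 0.09), 2 of 10 termination and rescue genes fell, Ltn1 (-0.50 ± 0.12) and Gspt2 (-0.38 ± 0.09), and 2 of 11 mitochondrial translation factors rose, C1qbp (0.29 ± 0.07) and Gfm2 (0.33 ± 0.08). None of these 5 passed without PBS 1 or without PBS 3, Mcts2 not without PBS 2 or L-proline 3 or in voom on recovered fragments, Ltn1 and Gspt2 not without L-proline 2, Gspt2 not after quantile normalization, and C1qbp and Gfm2 not without L-proline 2 or 3 (limma, adjusted p up to 0.143). No gene of the 7 for selenocysteine insertion passed in limma. An unadjusted p under 0.05 was found in 2 of them and in 3687 of all 10500 genes tested. Of 9 TOP genes outside the ribosome 2 fell (22.2%), Hnrnpa1 from 345 to 203 FPKM (-0.77 ± 0.09) and Vim from 2871 to 2328 FPKM (-0.30 ± 0.06). Hnrnpa1 passed in all 13 alternatives, and Vim not without PBS 1 or PBS 3 or with no filter (limma, adjusted p up to 0.0592). Tpt1, another TOP gene, had 0.21 ± 0.07 (limma, adjusted p = 0.0561), with 0.02 to 0.27 over the alternatives, and passed in 3 of 13. Eef1a1 and Eef2, which carry the tract too, had 0.18 and did not pass. After quantile normalization they had -0.09 and 0.02. The 9 TOP genes had a median of 0.05, with 5 positive and 4 negative values.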

How the data were processed

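The authors deposited 1 table of FPKM values for 6 libraries and 14408 gene symbols, per the file headers. Per the labels' protocols, polyadenylated RNA (1.5 µg) was made into libraries with a NEBNext Ultra kit and read as paired ends on a NovaSeq. HISAT2, HTSeq 0.13.5 and the build GRCm39 stand in the submitters' processing notes, with no role given. A gene's FPKM depends on the gene model and on how much of the library other genes take. Groups and replicate numbers came from the sample titles.

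Differences were tested with limma 3.58.1 in R 4.3.3 on log2(FPKM + 1): a linear model over all 6 libraries, empirical Bayes variances that follow a trend in mean level, a two-sided test, and Benjamini-Hochberg adjustment over the 10500 genes with a mean of at least 1 FPKM and a threshold of 0.05. Such fold changes understate those of genes with low values. The FPKM steps gave whole fragments, within 0.01, for 14407 of 14408 genes, using the 13 mitochondrial genes to find library totals. Those fragments served for totals, for shares and numbers of fragments, and for an alternative fit with limma voom, which called 2038 genes. The other alternatives were a pseudocount of 0.1, no filter, median-of-ratios scaling, quantile normalization, the replicate number as a block, array weights and leaving out each library. The fit and the recovery of fragments were tested on simulated data.

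Members and lists were chosen with earlier results of these data known. Values in every library are given for members past the threshold and for 16 fixed genes, and of each regulator list at most the 4 tested genes with the smallest unadjusted p are named; other members named with library values were chosen after their values were seen. Gene names and promoters came from RefSeq tables of GRCm38.p6, which matched 62 of the 71 members, and GC content from the longest GENCODE M21 transcript. The processing notes name another build, so the only coordinates given are those of the printed promoter stretches, on GRCm38.p6. A comparison with tRNA synthetases was left out because its symbol rule found too few genes.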

Additional observations from a re-analysis of the deposited data

How the results depend on the processing

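With array weights 28 translation factor genes and 4671 of all genes passed the threshold, against 6 and 2056. Leaving out 1 library gave 0 to 13 translation factor genes and 874 to 2770 of all genes, with the lowest counts without PBS 1 (976 of all genes) and PBS 3 (874). These fits use fewer libraries, with 2 in one group. Under the other 6 alternatives 4 to 6 translation factor genes and 1969 to 2383 of all genes passed. The members' median log2 fold change stayed between -0.061 and 0.036 under the 13 alternatives. Of 858 results for single members under alternatives, 786 kept their side of the threshold, 34 lost it, 38 gained it and 0 reversed, and in 43 the sign changed in a gene that passed in neither fit.

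With the replicate block, 6 translation factor genes and 2383 of all genes passed, and the members' median was -0.019. Same-numbered libraries had correlations of 0.651, 0.416 and -0.348 in their deviations from the group means, and PBS 2 correlated best with L-proline 3 (0.525), so the numbers were not taken to pair the libraries. Under the block Eif6 (limma, adjusted p = 0.0142) and Eif3g (0.0325) passed, and Eef1g (0.052) and Eef2kmt did not. The regulator Eif2ak2 also passed under the block. With 3 libraries a group, a member that did not pass is not shown to be unchanged.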
